A study of Homo sapiens with 4 samples.

Results

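The glycolysis and pentose phosphate genes described here are 30 of the 26726 genes listed in the expression tables of HN12 cells, a human head and neck squamous cell carcinoma (HNSCC) line. They were taken by symbol from a fixed list of glucose transporters and cytosolic enzymes. The rule used no measured value, but the list was drawn up with earlier results of these data known. All 30 symbols were found, each under 1 Ensembl identifier, and all 30 passed the filter on low counts that left 15104 genes for testing. The list holds 22 genes of glucose uptake and glycolysis down to lactate, 6 genes of the pentose phosphate pathway and 2 phosphoglucomutases.

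Glycolysis splits glucose into pyruvate in the cytosol and yields ATP and NADH, and lactate dehydrogenase then turns pyruvate into lactate and restores NAD+. The pentose phosphate pathway branches off at glucose 6-phosphate. Its oxidative arm makes NADPH, and its non-oxidative arm makes ribose phosphate and returns sugars to glycolysis. Tumor cells of many types run glycolysis at a high rate even with oxygen present, and several of the steps exist as isoforms coded by separate genes that differ in regulation and tissue pattern.

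RNA sequencing was done on 2 libraries of ATAD3A knockout cells (KO) and 2 libraries of their parental cells (WT), with no further treatment in either group. ATAD3A is an ATPase of the mitochondrial inner membrane, knocked out with CRISPR/Cas9, and both groups were grown with fetal bovine serum in DMEM (by the labels) or DMEM/F12 (by the study's methods). Each library came from an independent culture according to the study's methods, which describe single-cell KO clones and do not say which clone gave which library. The loss of ATAD3A and properties of a clone therefore cannot be told apart, and p-values measure the spread between cultures of these cells. The study measured glycolytic and respiratory activity in parental cells and a KO clone, which may or may not be the one sequenced. The comparison here asks which steps differed in their transcripts.

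The libraries held 13569971 to 18943547 counts. ATAD3A was at 38.1 and 29.995 CPM (read counts scaled to library size with TMM factors) in KO and at 116 and 106 CPM in WT, a log2 fold change of -1.70 with a standard error (SE) of 0.0907. Its transcript was reduced and still detected. All 10 squamous epithelium markers looked at were above 3 counts in every library, with summed levels of 4740 to 4770 CPM in KO and 2030 to 2040 CPM in WT, and they did not move as one. The keratins KRT5 and KRT14, which hold most of the sum in KO, had log2 fold changes of 2.63 and 2.20, while TP63 (-0.28), EPCAM (-0.34), CDH1 (-0.24) and DSG3 (-1.12) were called lower. Fibroblast markers (4 of 6 listed) summed to 12.0 to 14.9 CPM in KO and 12.8 to 16.7 in WT. Leukocyte markers (4 of 5 listed) summed to 2.87 to 4.63 CPM in KO and 3.81 to 4.67 in WT, and endothelial markers (2 of 3 listed) to 0.854 to 1.84 and 1.74 to 1.80. The part of the keratin shift in the results for the metabolic genes was not tested. In bulk RNA, fewer cells of a type and less RNA per cell cannot be told apart.

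Loss of ATAD3A went with small and mixed changes along the pathways. Within glycolysis, GAPDH, ENO1 and PKM, the 3 most abundant transcripts of the pathway, rose by 16.2 to 21.2%, and PGK1, which acts directly after GAPDH, and LDHA, which acts after PKM, decreased by 22.2 and 26.0%. The regulatory genes PFKFB2 and PFKFB3 rose by 46.9 and 47.9%. In the pentose phosphate pathway PGLS, PGD, RPIA and TKT rose, 4 of its 6 genes, where 20.4% of all genes tested rose. With a correction for GC content and length, described further on, GAPDH was not called (log2 fold change 0.01). ENO1 and PKM rose less (0.14 and 0.11), and PGK1 and LDHA were still called lower. In the pentose phosphate pathway PGLS was then not called, RPE was called higher and TALDO1 was called lower.

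At an adjusted p under 0.05 by edgeR's quasi-likelihood test over all 15104 genes, 11 of the 30 genes rose (36.7%), against 20.4% of all genes tested. There were 4 that fell (13.3%), against 19.1% of all genes tested. The 15 called in either direction are 50% of the list, against 39.5%. These genes are well expressed, with a median of 174 CPM against 20.7 CPM over all genes tested, and abundant genes were called more often. Among genes with a mean over 100 CPM, 34.9% rose and 30.4% fell, and of the 19 listed genes above that level 7 rose and 3 fell. The share that rose is close to that of all genes of this abundance, and the share that fell is below it.

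The changes were small. None of the 30 passed a 2-fold change, whereas 6.14% of all genes tested were called with over 2-fold. Log2 fold changes ran from -0.65 to 0.56, with a median of 0.06 against -0.0042 over all genes tested. The median size of a log2 fold change, without its sign, was 0.18 for the list and 0.29 for all genes tested. Both KO libraries lay above both WT libraries for 17 genes (34.1% of all genes tested did so) and below both for 8 (34.0% of all). The groups overlapped for SLC2A3, PFKL, PFKM, ALDOA and PGM1, and 68.1% of all genes tested did not overlap. The plot of fold changes in pathway order shows where along the route the genes rose and fell.

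**Figure D1:**
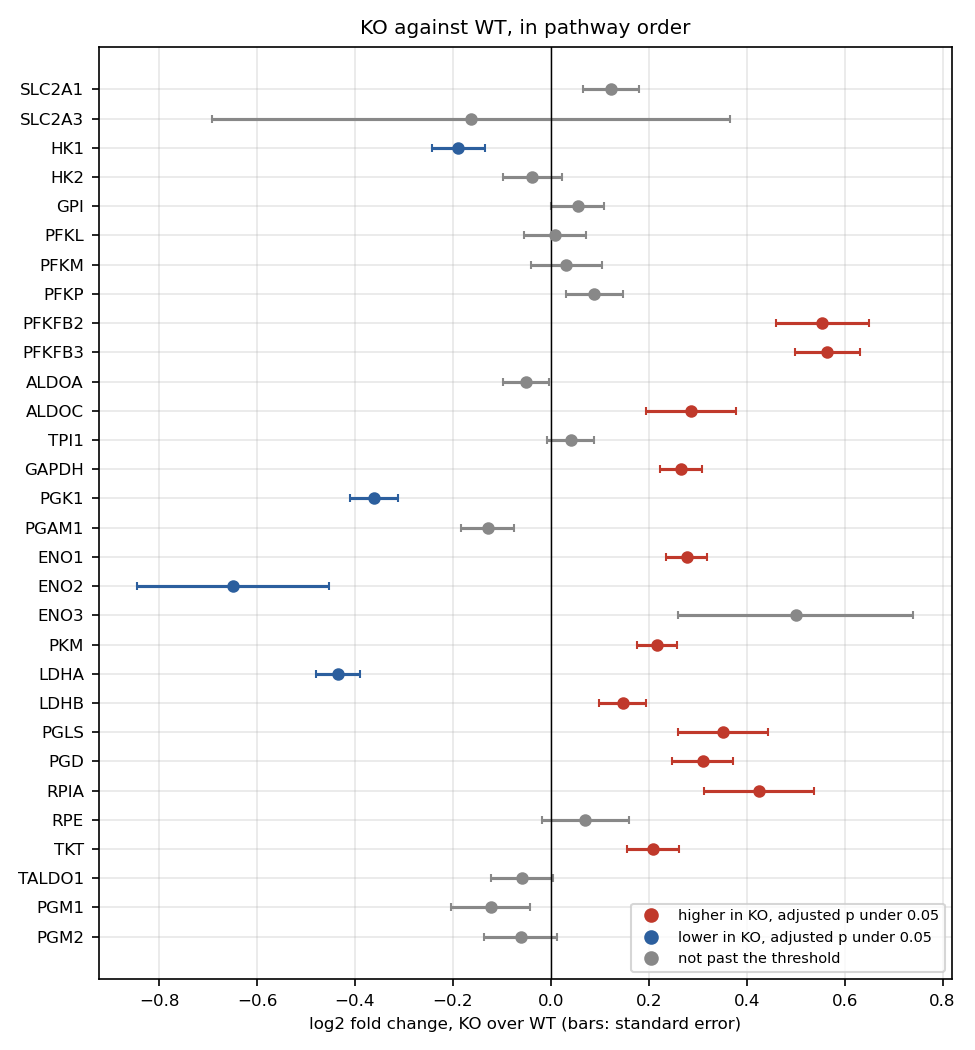
Log2 fold change of KO over WT for the 30 genes in pathway order, from glucose uptake at the top to phosphoglucomutase at the bottom. Points are edgeR estimates, bars are 1 SE, and colors give the call at an adjusted p under 0.05. Changes run from -0.65 for ENO2 to 0.56 for PFKFB3, and the pentose phosphate genes PGLS, PGD, RPIA and TKT lie to the right of 0.

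Glucose uptake and the first phosphorylation showed 1 called change, a fall of HK1. Of the glucose transporters, SLC2A1 (GLUT1), the common carrier of most cell types, was at 255 and 244 CPM in KO and 230.01 and 229 CPM in WT. KO lay above WT in both libraries, by 8.88%, and the test was not passed (edgeR adjusted p = 0.0819). Without KO replicate 2 it was passed (adjusted p = 0.0324), with a log2 fold change of 0.15. SLC2A3 (GLUT3), a high-affinity carrier, held only 26 and 20 counts in KO and 33 and 11 in WT, with overlapping groups (log2 fold change -0.16, SE 0.528, adjusted p = 0.842), so that a change was not detectable at this depth. Hexokinase traps glucose in the cell as glucose 6-phosphate. HK1 (ENSG00000156515) was at 281 and 268 CPM in KO and at 314 and 312 CPM in WT. This is a mean of 275 ± 9.05 (SD, n = 2) against 313 ± 0.894, so that HK1 fell by 12.3% (log2 fold change -0.19, SE 0.0549, edgeR adjusted p = 0.00563). The call was lost without WT replicate 1 (adjusted p = 0.085) and without WT replicate 2 (adjusted p = 0.0567). HK2, the isoform often raised in tumors, was at 163 and 167 CPM in KO and 167 and 171 CPM in WT, a difference of -2.57% that did not pass (adjusted p = 0.667). GPI, which converts glucose 6-phosphate to fructose 6-phosphate, was at 323 and 319 CPM in KO and 318 and 301 CPM in WT and did not pass either (log2 fold change 0.05, SE 0.0547).

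The 3 phosphofructokinase genes, coding for the enzyme of the committed step of glycolysis, did not pass the test, while both genes of its bifunctional regulator rose. PFKL, the liver-type subunit, was at 139 and 133 CPM in KO and 134 and 137 CPM in WT. PFKM, the muscle type, was at 97.7 and 97.4 CPM in KO and 90.1 and 101 CPM in WT. In both the groups overlapped. PFKP, the platelet type, was at 229.7 and 235 CPM in KO and 209 and 228 CPM in WT, with a log2 fold change of 0.09 (SE 0.0585, edgeR adjusted p = 0.244).

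PFKFB2 and PFKFB3 code for enzymes that make and break down fructose 2,6-bisphosphate, the strongest allosteric activator of phosphofructokinase. PFKFB3 (ENSG00000170525), the isoform with the highest kinase over phosphatase activity, was at 138 and 140.04 CPM in KO and 96.2 and 92.0 CPM in WT. Its mean was 139 ± 1.22 CPM in KO and 94.1 ± 3.01 in WT (log2 fold change 0.56, SE 0.0663, edgeR adjusted p = 9.99e-09). PFKFB2 (ENSG00000123836) was at 57.9 and 56.2 CPM in KO and 42.5 and 35.1 CPM in WT. Its mean was 57.1 ± 1.22 CPM in KO and 38.8 ± 5.24 in WT (log2 fold change 0.55, SE 0.0957, adjusted p = 1.23e-05). The 2 rose to nearly the same extent, and these are the largest rises among the 30 that passed the test. Both calls held in all 13 alternative fits.

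In the middle of the pathway 2 genes rose and 1 fell. Aldolase splits fructose 1,6-bisphosphate into the triose phosphates. ALDOA, the main isoform here, was at 1479 and 1399 CPM in KO and 1510.1 and 1470.2 CPM in WT. Its groups overlapped and the difference of -3.43% did not pass (edgeR adjusted p = 0.429). ALDOC (ENSG00000109107), known as the brain-type isoform, was at 52.3 and 50.1 CPM in KO and 42.7 and 41.3 CPM in WT, a rise of 21.9% (log2 fold change 0.29, SE 0.0913, adjusted p = 0.0114). It did not pass without KO replicate 1 (adjusted p = 0.0604) or without WT replicate 2 (adjusted p = 0.0918). TPI1, which interconverts the triose phosphates, was at 967 and 942 CPM in KO and 921 and 936 CPM in WT (log2 fold change 0.04, SE 0.0481), and did not pass.

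GAPDH (ENSG00000111640), the enzyme that oxidizes glyceraldehyde 3-phosphate and makes NADH, was at 3621 and 3438 CPM in KO and 2960.4 and 2913 CPM in WT. The mean was 3529 ± 129 CPM in KO and 2937 ± 33.7 in WT, a rise of 20.2% (log2 fold change 0.27, SE 0.0429, edgeR adjusted p = 4.48e-06). GAPDH is widely used as a reference gene, and its CPM differed between the groups by more than the spread within them. With a correction of each library for GC content and length the difference was gone (log2 fold change 0.01, SE 0.0322, adjusted p = 0.822). On deposited RPKM values, which are scaled by library totals and length, it was 1879 and 1789 in KO and 1611 and 1592 in WT and just missed the threshold with limma (adjusted p = 0.0581 with a pseudocount of 1).

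PGK1 (ENSG00000102144), which makes the first ATP of the pathway in the step after GAPDH, went the other way. It was at 734 and 728 CPM in KO and 924 and 954 CPM in WT, so that every KO library lay below every WT library. The mean was 731 ± 4.63 CPM against 939 ± 21.4, so that PGK1 fell by 22.2% (log2 fold change -0.36, SE 0.0488, edgeR adjusted p = 1.67e-07). The RPKM ratio of GAPDH to PGK1 was 12.9 and 12.3 in KO and 8.35 and 7.96 in WT. PGAM1, which moves the phosphate group from the third to the second carbon of phosphoglycerate, was at 431 and 397 CPM in KO and 447 and 459 CPM in WT. Both KO libraries lay below WT, and the difference of -8.55% did not pass the test (adjusted p = 0.0555), and without KO replicate 1 it passed (log2 fold change -0.19, adjusted p = 0.00629).

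Enolase, which forms phosphoenolpyruvate, showed its main isoform rising and a rare one falling. ENO1 (ENSG00000074800) was at 4170.4 and 3979 CPM in KO and 3362 and 3363 CPM in WT. The mean was 4075 ± 135.3 CPM against 3362 ± 0.596, a rise of 21.2% (log2 fold change 0.28, SE 0.042, edgeR adjusted p = 1.47e-06), and it was the 9th most abundant of all listed genes. ENO2 (ENSG00000111674), the neuron-type isoform, was rare, at 6.83 and 6.77 CPM in KO and 9.17 and 12.2 CPM in WT. It fell by 36.2% (log2 fold change -0.65, SE 0.196, adjusted p = 0.0076). The call rests on WT replicate 2, since without that library the log2 fold change was -0.43 and the adjusted p 0.199. ENO3, the muscle-type isoform, was at 7.05 and 6.89 CPM in KO and 3.94 and 5.97 CPM in WT. It did not pass (log2 fold change 0.50, SE 0.24, adjusted p = 0.097), but did so without WT replicate 2 (0.82, adjusted p = 0.0298).

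PKM (ENSG00000067225) codes for the muscle-type pyruvate kinase, which forms pyruvate and ATP. It was at 4536 and 4436 CPM in KO and 3909.8 and 3809 CPM in WT, 8th in abundance among all listed genes. The mean was 4486 ± 70.8 CPM against 3859 ± 71.4, a rise of 16.2% (log2 fold change 0.22, SE 0.0412, edgeR adjusted p = 4.97e-05). It did not pass on RPKM values (limma adjusted p = 0.101 with a pseudocount of 1). Gene-level counts do not separate the M1 and M2 splice forms of PKM, which were not analysed here.

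At lactate dehydrogenase one isoform fell and the other rose. LDHA codes for the M subunit, favored in tissues that make lactate, and LDHB for the H subunit, favored in tissues that oxidize it. LDHA (ENSG00000134333) was at 1839.5 and 1739 CPM in KO and 2402 and 2433 CPM in WT. The mean was 1789 ± 71.2 CPM against 2418 ± 21.8, so that LDHA fell by 26.0% (log2 fold change -0.43, SE 0.045, edgeR adjusted p = 6.23e-10). This is the smallest adjusted p among the 30 genes. LDHB (ENSG00000111716) was at 976 and 946 CPM in KO and 866 and 869.8 CPM in WT, a rise of 10.7% (log2 fold change 0.15, SE 0.0482, adjusted p = 0.014). The rise of LDHB did not pass without KO replicate 1, WT replicate 1 or WT replicate 2 (adjusted p = 0.0637, 0.108 and 0.106), whereas the fall of LDHA passed in all 13 alternative fits.

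The oxidative arm of the pentose phosphate pathway rose in both of its listed genes. PGLS (ENSG00000130313), which opens the lactone ring of 6-phosphogluconolactone, was at 51.5 and 50.6 CPM in KO and 39.6 and 40.5 CPM in WT. Its mean was 51.1 ± 0.656 CPM against 40.1 ± 0.585, a rise of 27.5% (log2 fold change 0.35, SE 0.0919, edgeR adjusted p = 0.00224). PGD (ENSG00000142657), which makes NADPH and ribulose 5-phosphate, was at 213 and 188 CPM in KO and 164 and 159.8 CPM in WT. Its mean was 201 ± 18.0 CPM against 162 ± 2.88, a rise of 23.9% (log2 fold change 0.31, SE 0.0632, adjusted p = 0.000136). With the correction for GC content and length PGLS did not pass (0.02, adjusted p = 0.886), and PGD passed with a smaller change (0.15, adjusted p = 0.0325).

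Of the 4 non-oxidative genes, 2 rose. RPIA (ENSG00000153574), the isomerase that yields ribose 5-phosphate, was at 35.0 and 31.4 CPM in KO and 24.2 and 25.3 CPM in WT (log2 fold change 0.42, SE 0.112, edgeR adjusted p = 0.00237). RPE, the epimerase that makes xylulose 5-phosphate from the same substrate, was at 49.8 and 51.2 CPM in KO and 48.0 and 48.2 CPM in WT and did not pass (adjusted p = 0.574). TKT (ENSG00000163931), a transketolase that moves carbon units between sugars, was at 375 and 366 CPM in KO and 321 and 319.8 CPM in WT, a rise of 15.5% (log2 fold change 0.21, SE 0.0535, adjusted p = 0.00186). On RPKM values TKT did not pass (limma adjusted p = 0.0647 with a pseudocount of 1). TALDO1, the transaldolase of the same arm, was at 132 and 131 CPM in KO and 139 and 136 CPM in WT, a difference of -4.00% that did not pass (adjusted p = 0.502). Over the 6 genes the median log2 fold change was 0.26, against 0.05 over the 22 glycolysis and uptake genes and -0.0042 over all genes tested.

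The phosphoglucomutases link glucose 6-phosphate to glycogen and nucleotide sugars. PGM1 was at 74.0 and 65.8 CPM in KO and 80.1 and 72.2 CPM in WT, with overlapping groups. PGM2, which mainly acts on pentose phosphates, was at 78.2 and 80.7 CPM in KO and 83.9 and 81.8 CPM in WT. Neither passed (edgeR adjusted p = 0.244 and 0.555).

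**Figure D2:**
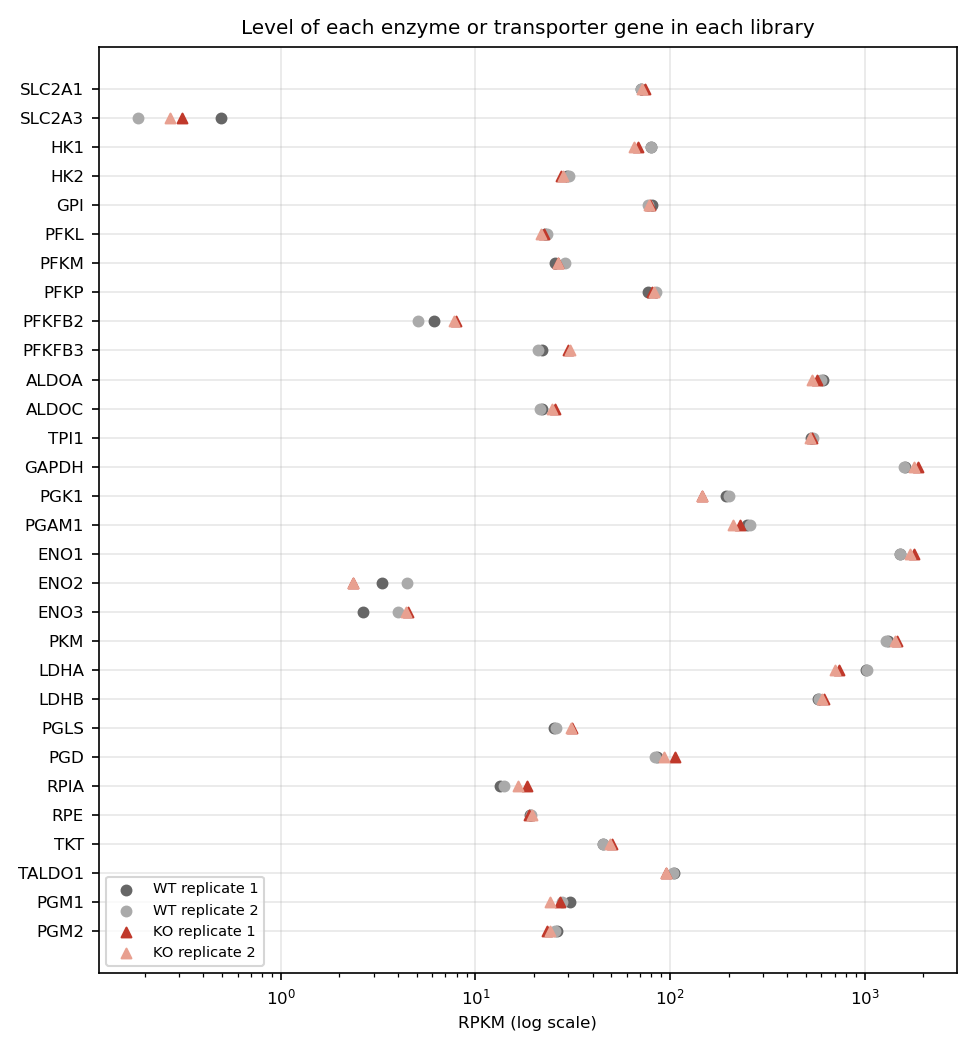
RPKM of each gene in each library on a log axis, in pathway order, with circles for the 2 WT and triangles for the 2 KO libraries. Levels span from below 1 RPKM for SLC2A3 to above 1000 RPKM for GAPDH, ENO1 and PKM. The triangles of PGK1 and LDHA lie to the left of the circles, and those of PFKFB2 and PFKFB3 to the right.

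Compared per length, the steps differed widely in their transcript levels, and the order was the same in both groups at the top. GAPDH was at 1834 ± 63.5 RPKM in KO and 1602 ± 13.5 in WT, followed by ENO1 at 1753 ± 54.6 and 1518 ± 4.91 and PKM at 1449.7 ± 19.9 and 1309 ± 20.2. The KO ranges of GAPDH (1789 to 1879) and ENO1 (1714 to 1791) overlapped, while their WT ranges did not. LDHA came next in both groups. Summed over isoforms, lactate dehydrogenase was at 1359 and 1303 RPKM in KO and 1589.7 and 1612 in WT, so that the fall of LDHA exceeded the rise of LDHB. Summed hexokinase was at 95.9 and 93.9 RPKM in KO and 109.8 and 111 in WT. Summed phosphofructokinase was at 129.9 and 131 RPKM in KO and 126 and 137 in WT, with overlapping groups. PFKFB2 and PFKFB3 together were at 38.0 and 38.2 RPKM in KO and 28.0 and 26.1 in WT. The 2 oxidative pentose phosphate genes summed to 137 and 124 RPKM in KO and 111 and 109.5 in WT. The 4 non-oxidative genes summed to 183 and 180.25 RPKM in KO and 182 and 182 in WT, without separation. These RPKM sums lack the TMM factors used for CPM, which were 0.975 and 0.977 in KO and 1.02 and 1.03 in WT. In RPKM, KO therefore stands lower against WT than in CPM, and whether the groups overlap can depend on the scaling. Of the 4 non-oxidative genes, TALDO1 was the highest per length, at 95.8 and 95.2 RPKM in KO and 105 and 104 in WT. In CPM, TKT was higher, with means of 370 in KO and 321 in WT against 132 and 137 for TALDO1. Their order in RPKM rests on the lengths used, 7286 nt for TKT and 1346 nt for TALDO1.

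The list as a whole held 2.09 and 2.02% of counts in KO and 2.027 and 2.025% in WT, with overlapping groups. On the TMM-scaled CPM used for single genes, its sum was 21516 and 20693 CPM in KO and 19859.7 and 19756 CPM in WT, with KO above WT by a ratio of 1.07. These totals depend on GAPDH, ENO1 and PKM. Without these genes the list held 0.894 and 0.863% of all counts in KO and 0.983 and 0.991% in WT, with KO below both WT libraries. An exact permutation test of 2 against 2 libraries cannot give a p under 0.333, so these are given as values.

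Counted in percentage points of summed RPKM, the largest shift within the families was at lactate dehydrogenase. LDHA made up 54.5 and 53.9% of summed LDHA and LDHB RPKM in KO and 63.8 and 64.0% in WT, a difference of -9.71 percentage points between means of 54.2 ± 0.429 and 63.9 ± 0.146 (n = 2 each). The RPKM ratio of LDHA to LDHB was 1.199 and 1.17 in KO and 1.76 and 1.78 in WT. HK1 took 71.4 and 69.8% of hexokinase RPKM in KO and 73.0 and 72.5% in WT. ALDOC took 4.33 and 4.38% of aldolase in KO and 3.49 and 3.47% in WT. PFKP was the main phosphofructokinase, with 62.2 and 63.2% in KO and 61.4 and 61.8% in WT. PFKFB3 took 79.1 and 79.8% of the pair with PFKFB2 in KO and 78.2 and 80.6% in WT, so that the mix did not separate although both genes rose. ENO1 made up 99.4 to 99.6% of enolase in every library. As a ratio, the shift between the rare enolases was larger than at lactate dehydrogenase, with an ENO3 to ENO2 ratio of 1.92 and 1.89 in KO and 0.798 and 0.907 in WT. SLC2A1 made up 99.3 to 99.7% of the 2 glucose transporters in every library. For each of these shares the exact two-sided permutation p was 0.333 or more, and 0.333 is the smallest that the design allows.

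**Figure D3:**
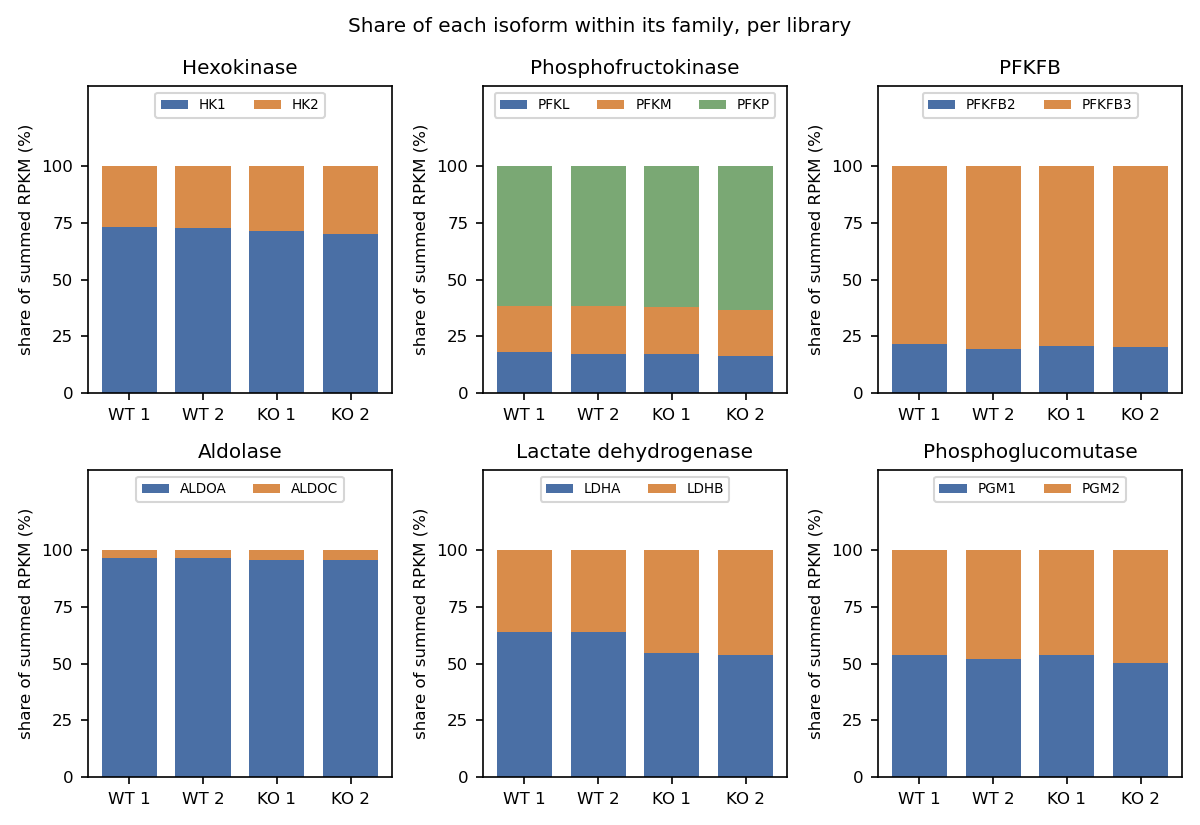
Share of each isoform in the summed RPKM of its family (percent), with 1 stacked bar per library. The LDHA part of the lactate dehydrogenase bars is 63.8 and 64.0% in WT and 54.5 and 53.9% in KO, while the phosphofructokinase and PFKFB bars look alike in all 4 libraries.

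Across all genes with an average log2 CPM over 2, fold changes rose with the GC content of the transcript. The median log2 fold change was -0.16 for 4356 genes of at most 45% GC, 0.08 for 1695 genes of 50 to 55%, and 0.28 for 1525 genes over 60%. The listed genes have a median GC content of 53.0%, against 48.2% for all genes tested, and a median length of 2713 nt against 3138 nt. PGK1, LDHA, PFKFB2, RPE and PGM2 are at most 45% GC, and GAPDH is at 58.8%. When each library was corrected for GC content and length, 8 genes rose and 9 fell, against 17.0% and 16.6% of all genes tested under the same correction. The rises of GAPDH (log2 fold change 0.01, edgeR adjusted p = 0.822), PGLS (0.02, 0.886), ALDOC (0.07, 0.56) and LDHB (0.06, 0.218) no longer passed.

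Other genes passed with that correction and not in the uncorrected fit. PFKL and TPI1 turned from a slight rise to a called fall (-0.21 with edgeR adjusted p = 0.00333, and -0.20 with 0.000116). ALDOA (-0.19), PGAM1 (-0.30) and TALDO1 (-0.32) were also called lower, and RPE was called higher (0.26). The falls of LDHA (-0.39, adjusted p = 7.98e-11), PGK1 (-0.22, adjusted p = 4.41e-05), HK1 (-0.26) and ENO2 (-0.78) were called with and without it. So were the rises of PFKFB2 (0.73), PFKFB3 (0.47), ENO1 (0.14), PKM (0.11), PGD (0.15), RPIA (0.32) and TKT (0.16). Whether the trend with GC content comes from the cells or from the libraries was not tested.

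**Figure D4:**
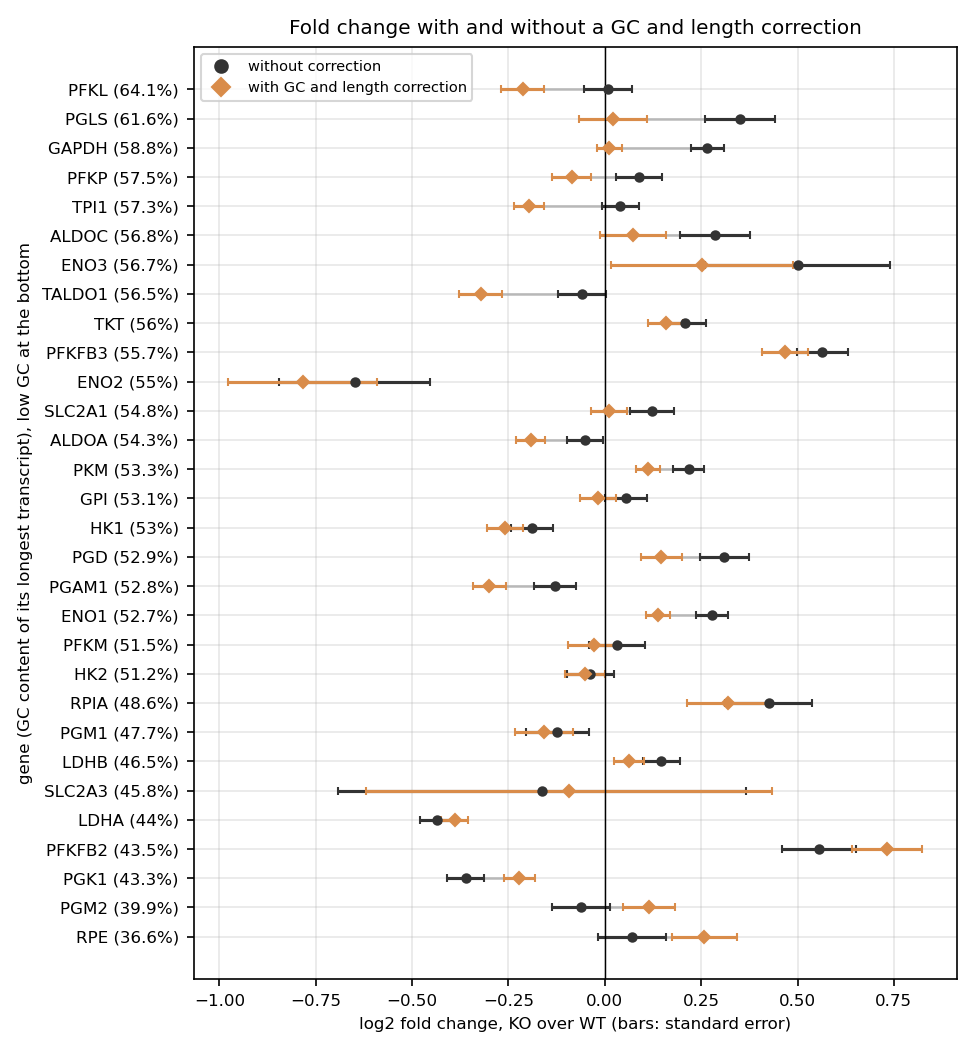
Log2 fold change of KO over WT for each gene without (circles) and with (diamonds) a correction of each library for GC content and transcript length, with bars of 1 SE. Genes are ordered by the GC content of their longest transcript, lowest at the bottom. GAPDH moves from 0.27 to 0.01 and PGLS from 0.35 to 0.02, while LDHA moves from -0.43 to -0.39 and PFKFB2 from 0.55 to 0.73.

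Scaling by library totals alone, without TMM factors, called 9 of the 30 genes higher and 6 lower, in place of 11 and 4, and moved the median of all genes tested to -0.07. Over all genes it called 2508 higher and 3615 lower, in place of 3074 and 2891. ALDOC (adjusted p = 0.0567) and LDHB (adjusted p = 0.203) were no longer called, and ALDOA (log2 fold change -0.12, edgeR adjusted p = 0.0319) and PGAM1 (-0.20, adjusted p = 0.0027) were called lower.

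Reads from processed pseudogenes could affect these abundant genes, since 38 pseudogenes of 8 of them are listed. Only TPI1P1, TPI1P2, PGAM1P7 and LDHAP4 were above 10 counts in a library, and the highest, LDHAP4, had 0.523% as many counts as LDHA. These counts do not show how reads that match both a gene and its pseudogene were assigned or left out. SLC2A1-AS1, an antisense gene, had 6 and 5 counts in KO and 21 and 19 in WT, against 3180 to 4699 for SLC2A1. The 30 genes lie on 13 chromosomes, with 6 on chromosome 12, 5 on chromosome 1 and 4 on chromosome 10.

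For 3 further lists of sugar metabolism the counts below stand beside 20.4% of all genes tested that rose and 19.1% that fell. Of 35 other isozymes, transporters and regulators of glycolysis, 15 could be tested, of which 2 rose and 6 fell, with a median log2 fold change of -0.10. PFKFB4, a further regulator of phosphofructokinase, was at 8.24 and 9.63 CPM in KO and 15.6 and 15.9 CPM in WT, a log2 fold change of -0.82 (edgeR adjusted p = 0.000108), opposite in sign to PFKFB2 and PFKFB3. The sugar transporter SLC2A12 was at 2.93 and 2.62 CPM in KO and 13.0 and 13.9 CPM in WT (log2 fold change -2.27, adjusted p = 7.76e-11). SLC2A11, also of the transporter family, had a log2 fold change of -0.75 (adjusted p = 2.89e-05), and SLC2A6 rose by 0.80 (adjusted p = 2.16e-09).

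Of 15 other pentose phosphate and ribose genes, 11 could be tested, of which 1 rose and 5 fell, with a median log2 fold change of -0.17. PRPS1 and PRPS2, which activate ribose 5-phosphate for nucleotide synthesis, fell by 0.30 and 0.35 on the log2 scale (adjusted p = 0.000715 and 0.00117). PRPS1 just missed the threshold without WT replicate 1 (adjusted p = 0.0509). IDNK, a gluconate kinase, had a log2 fold change of -1.41 and DERA, an aldolase of deoxyribose phosphate, of -0.24. The call of DERA was lost without KO replicate 1, WT replicate 1 or WT replicate 2 (adjusted p = 0.0999, 0.13 and 0.134).

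Of 31 glycogen and gluconeogenesis genes, 23 could be tested, of which 5 rose and 9 fell, with a median log2 fold change of -0.23. PYGB, the brain-type glycogen phosphorylase, was at 216 and 201 CPM in KO and 112 and 109 CPM in WT (log2 fold change 0.92, edgeR adjusted p = 1.71e-14). FBP1, which reverses the phosphofructokinase step, was at 4.61 and 3.66 CPM in KO and 9.43 and 8.20 CPM in WT (log2 fold change -1.09, adjusted p = 0.000198). The muscle-type phosphorylase PYGM had 8 and 4 counts in KO and 16 and 21 in WT, with a log2 fold change of -1.86 (adjusted p = 0.0251), which was lost without KO replicate 2 (adjusted p = 0.121) or WT replicate 2 (adjusted p = 0.198). PHKB, a phosphorylase kinase subunit, and NHLRC1, a ubiquitin ligase of glycogen metabolism, had log2 fold changes of -0.56 and -0.80. Without WT replicate 1 NHLRC1 did not pass (-0.49, adjusted p = 0.315).

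Promoter windows of 250 bases before to 50 bases after the transcription start were found in RefSeq (GRCh38.p14) for 28 of the 30 genes, in 52 windows. SLC2A3 and PFKFB2 had no entry. Each window was searched on both strands for ACGTG and GCGTG, the core letters bound by hypoxia-inducible factors, and for CACGTG, the E-box that the MYC family binds and that holds ACGTG on either strand. ACGTG was in 36.5% of the members' windows, against 21.4% of all 35116 windows, GCGTG in 40.4% against 36.5%, and CACGTG in 13.5% against 7.26%. Among genes with a window, ACGTG was present for 4 of the 10 that rose, 3 of the 4 that fell and 8 of the 14 that did not pass. It thus occurred both in genes that rose and in genes that fell, and these numbers are too small to compare the groups. A match of letters is a description and no measure of binding.

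The following stretches of 30 bases show where called genes hold ACGTG upstream of a start, so that falling and rising genes can be read side by side. They are written 5′ to 3′ on the gene's strand, with ACGTG on either strand and any E-box it forms in capitals. LDHA and PGK1, which fell, each hold ACGTG at more than 1 place within a single stretch. Windows of ALDOC, which rose, and of HK2 and PGM2, which were not called, also hold it at more than 1 place. The E-box CACGTG stands in LDHA, which fell, as well as in PFKFB3, GAPDH and ALDOC, which rose. The ENO2 stretch, both ALDOC stretches, the second LDHA stretch and 8 bases of the first lie in exons of other annotated transcripts of the same gene. PFKFB3 and LDHA have 2 starts each in the table, and the stretches belong to the second start of PFKFB3 and the first of LDHA. For GAPDH, unlike the other genes shown, the bases checked after the start were not found in its GENCODE transcripts.
LDHA, chr11:18394366-18394395, plus strand: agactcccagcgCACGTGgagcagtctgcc
LDHA, chr11:18394470-18394499, plus strand: gactcaCACGTGggttcccgCACGTccgcc
PGK1, chrX:78104043-78104072, plus strand: cggACGTGacaaacggaagccgCACGTctc
ENO2, chr12:6914449-6914478, plus strand: cacccgcgctcgtACGTGcgcctccgccgg
PFKFB3, chr10:6202812-6202841, plus strand: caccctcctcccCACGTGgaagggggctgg
GAPDH, chr12:6535171-6535200, plus strand: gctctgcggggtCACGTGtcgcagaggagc
ALDOC, chr17:28577116-28577145, minus strand: aagtgcccggCACGTGgtaaagggattgtg
ALDOC, chr17:28576907-28576936, minus strand: cccccggaggagtCACGTagctctgcgaca
PGD, chr1:10398906-10398935, plus strand: gggggtgggcgggCACGTttgcctcggatg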

How the data were processed

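RNA sequencing of 2 ATAD3A KO and 2 WT libraries of HN12 cells was used, grouped by the sample labels. The authors deposited whole-number read counts per gene for 26726 genes, without normalization, and a table of RPKM values. Each RPKM equals its count divided by the library total and by 1 length per gene, with a spread of at most 1.4e-05%. The submitters' processing notes name hg19, CASAVA, STAR 2.5, HTSeq and edgeR 3.16.5, and the use of strand is not given in the sources used here. Reads shared by paralogs or overlapping genes are therefore uncertain.

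From the counts, KO was compared with WT in edgeR 4.0.16 under R 4.3.3 (filterByExpr, TMM, glmQLFit, glmQLFTest, group only), with Benjamini-Hochberg adjustment over 15104 genes and a threshold of 0.05. The SE came from the log2 fold change and the F statistic. The biological coefficient of variation was 5.88%, and 3 counts correspond to 0.163 to 0.216 CPM, which limits precision for rare genes only. Same-group libraries differed beyond sampling noise (chi-square per degree of freedom 4.36 in KO and 3.43 in WT). Means are given with their SD over 2 libraries. Isoform shares used RPKM. GC content and chromosomes came from GENCODE release 29 (GRCh38), matched for 97.2% of genes tested, and lengths from the RPKM. The GC and length correction used splines of 4 degrees of freedom as offsets.

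The members and lists were chosen with earlier results of these data known. All 30 members are named, and outside them ATAD3A, cell markers and, per further list, up to 5 called genes with the largest change. The summary of genes over 100 CPM and the values of named genes of the further lists without each library were added after seeing the data. A few genes of the further lists are counted and not reported singly here. Alternatives were DESeq2 1.42.0, its size factors, library totals, no filter, a minimum of 10 counts per library, a replicate block, limma 3.58.1 on log2(RPKM + 1) and log2(RPKM + 0.1) of the deposited values, the GC and length correction and leaving out each library. The tests were checked on simulated data with 200 genes changed by 1.5- or 2-fold. Smaller changes, such as those of most listed genes, were not covered by that check.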

Additional observations from a re-analysis of the deposited data

How the results depend on the processing

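Over 13 alternative fits, 7 of the 15 called genes stayed called in every one (PFKFB2, PFKFB3, PGK1, ENO1, LDHA, PGD and RPIA), the other 8 lost the call in at least 1, and none of the 15 changed sign. Of the 15 genes not called, 7 changed sign in at least 1 fit and 8 were called in at least 1. DESeq2, its size factors, no filter and a minimum of 10 counts per library gave 11 higher and 4 lower, as in the report. The number of genes called higher was 7 with limma on log2(RPKM + 1) and 7 on log2(RPKM + 0.1), where GAPDH, PKM, LDHB and TKT were lost. The number called lower was 9 after the correction for GC content and length, where PFKL turned to -0.21 and TPI1 to -0.20. With the fold thresholds of the study's methods (above 1.25 or below 0.75 and an unadjusted p under 0.05), 5 were higher and 2 lower, against 17.0 and 12.2% of all genes tested. Leaving out each library in turn gave 9 to 12 higher and 2 to 5 lower, with the lone library assumed to vary like the pair. The lowest, 2, was without WT replicate 2, where HK1 (adjusted p = 0.0567) and ENO2 (adjusted p = 0.199) were lost. The cause was not tested.

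A replicate block on the shared numbers gave 11 higher and 4 lower and changed no call among the 30 genes. Deviations of same-numbered libraries had a correlation of -0.0598 over 11161 genes, so the numbers were not taken to pair the libraries. Counts for the further lists moved by more than 1.5 times in some fits, for example to 1 higher for the glycolysis regulators, 3 lower for the ribose genes and 5 lower for the glycogen genes with DESeq2. The LDHA share moved by -8.53 percentage points on counts in place of -9.71 on RPKM, and the share of windows with ACGTG was 34.6% of the members' and 18.5% of all with upstream bases only.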
